A study of Danio rerio with 6 samples.

Results

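The hypothalamic and pituitary hormone genes measured here were 6 genes of the brain and the gland beneath it: avp, hcrt and trh, whose peptides are made by neurons of the hypothalamus, and lhb, smtla and smtlb, whose hormones are made by the pituitary. They were the targets with a RefSeq mRNA identifier whose zebrafish symbol matched these names, which gave 6 of 37157 targets and 71 of 385000 probes on the array. A target is the set of probes designed against one transcript. avp (NM_178293), hcrt (NM_001077392), trh (NM_001012365), smtla (NM_001037706) and smtlb (NM_001037674) had 12 probes each and lhb (NM_205622) had 11. The arrays measured whole larvae of the wild-type AB strain at 120 hours post fertilization (hpf), in 3 pools given 5 Gy at 26 hpf from a Co-60 source and 3 mock irradiated control pools (0 Gy). Each pool held 50 larvae and was hybridised to its own one-colour array. Replicates came from separate clutches, and the sources used here do not say whether control and irradiated pools of the same number share a clutch. RNA came from the whole body, of which the cells that make these hormones are a small part, and the labels name no mutation or transgene in either group.

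The hypothalamus releases peptides that act inside the brain, that pass to the blood, or that act on the pituitary next to it. In fish its neurons project straight into the pituitary, whose cells secrete hormones for growth, stress, thyroid function, reproduction and pigmentation. Such peptides are cut from larger precursors and stored in dense granules until release. Larvae at this age already swim, sleep and regulate salt balance, whereas reproduction lies far ahead. In whole-larva RNA, fewer cells of a type and less RNA per cell cannot be told apart.

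None of the 6 hormone genes was altered at 5 Gy. A target counted as altered when limma's moderated test gave it p below 0.05 without adjustment and its change reached 1.5-fold (0.585 on the log2 scale), the limits in the study's methods, and this held for 4.04% of all targets (1.15% higher and 2.89% lower) and for 3.3% of targets with a zebrafish symbol. None of the 6 had an unadjusted limma p under 0.05 or passed the methods' t-test. With the 6 pools weighted equally and no covariate, no target on the array reached an adjusted p of 0.05 in limma. With array weights in the fit, hcrt alone of the 6 counted as altered, and so did 10913 of all 37157 targets. Log2 ratios (5 Gy over control) exceeded 0 for 5 of the 6 genes and for 46.6% of all targets. The median ratio was 0.59 over the 6 genes and -0.033 over all targets. Each gene's 95% interval held 0.

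The ratios of avp, lhb and smtla leaned on a single pool, and that of hcrt did in part. 5 Gy replicate 2 had the highest value of all 6 pools for avp, hcrt, lhb and smtla, and it exceeded the next pool by at least 1.5-fold in each of the 4. Over all targets that pool was the highest for 17.6% and the highest by at least 1.5-fold for 6.14%. Since it was the highest pool for avp, hcrt, lhb and smtla, leaving it out had to lower their ratios. Without 5 Gy replicate 2, the ratio was above 0 for 4 of the 6 genes, against 49.8% of all targets, and the median over the 6 genes was 0.16. None was altered in that comparison, in which limma called 2.41% of targets. The plot of values by pool shows the square of 5 Gy replicate 2 standing off in the panels of avp, lhb and smtla.

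**Figure D1:**
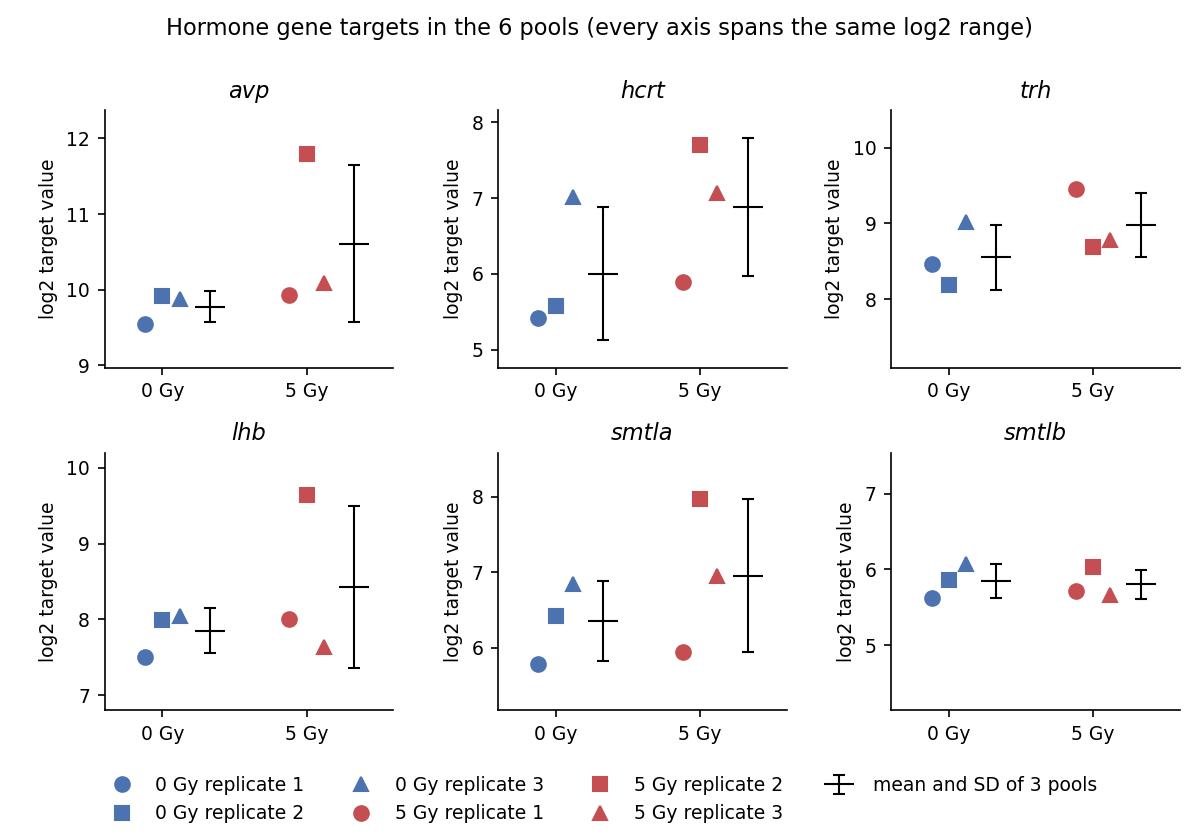
Log2 target value (y axis) of the 6 hormone genes in each of the 6 pools, controls (0 Gy) on the left and irradiated pools (5 Gy) on the right of each panel. Symbols mark the replicate number and the bar gives the mean and SD of 3 pools. 5 Gy replicate 2 is the highest pool for avp, hcrt, lhb and smtla, at 11.80, 7.70, 9.64 and 7.97, and the groups overlap for every gene but avp.

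The arrays themselves also differed. Control replicate 3 resembled 5 Gy replicate 3 (r = 0.987 across targets) more than it did the other controls (r = 0.897 and 0.905). A probe's number is read here as an order along its target, which no source used here defines, and results that rest on it (the signal slope, close numbers, joined probes) share that limit. The mean difference in log2 signal from the first to the last probe of a target ranged from -0.13 to 0.28 in controls and from -0.12 to 0.030 at 5 Gy, and was above 0.1 in control replicates 1 and 2 alone. Probes of the same target disagreed most in the arrays numbered 2, with a median absolute residual of 0.34 in control replicate 2 and 0.30 in 5 Gy replicate 2 on the log2 scale, against 0.17 to 0.23 in the other 4. On each of the 6 hormone genes the SD of the probe residuals was largest in 5 Gy replicate 2, at 1.16 to 2.07. No share over all targets was computed for that position. By median absolute residual smtlb was instead most spread in control replicate 1 (0.81, against 0.72 in 5 Gy replicate 2). Genes of fixed lists were sought among targets with a zebrafish symbol. This gave 7 of 65 neuron markers, 3 of 23 glia markers and 2 of 59 genes of the thyroid, interrenal and growth axes. All of these were lowest in 5 Gy replicate 2, a position that this pool had for 27.5% of all targets. Other lists were mixed. That pool was lowest for 1 of 8 skeletal muscle markers, 1 of 6 hypothalamic peptide genes and 0 of 3 pituitary hormone genes. That pool was also lowest for 2 of 4 transcription factors, 1 of 2 granule genes and 0 of 3 receptors. The summed intensity of the neuron markers was 12353 there, against 23623 and 27568 in the other 5 Gy pools. In controls it was 28564 to 32795, and none was at the array's lowest value. This sum is of linear intensities, so sncb, the brightest of the 7, weighs most in it. A fit with the signal slope as a covariate is given below as an alternative, and no hormone gene passed in it. Beyond that fit, the part of probe disagreement, signal slope or neuron and glia content in the values of the hormone genes was not tested.

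The gene avp encodes the precursor of vasopressin, called vasotocin in fish, a peptide of preoptic and hypothalamic neurons that acts on water balance, stress and social behaviour. Its log2 values were 9.54, 9.91 and 9.87 in control replicates 1, 2 and 3, and 9.93, 11.80 and 10.09 in 5 Gy replicates 1, 2 and 3. The 3 irradiated pools all lay above the 3 controls, but 5 Gy replicate 1 exceeded control replicate 2 by far less than 5 Gy replicate 2 did. Such a position was held by 2.78% of all targets. Control pools averaged 9.78 ± 0.204 and irradiated pools 10.61 ± 1.04 (SD, n = 3 pools per group), a log2 ratio of 0.83 or 1.78-fold (standard error 0.493, 95% interval -0.30 to 1.96, limma adjusted p = 0.905). The exact permutation test gave a two-sided p = 0.1, which no arrangement of 3 and 3 pools can go below. Within pairs of the same number the difference was 0.39, 1.88 and 0.22. Without 5 Gy replicate 2 the ratio was 0.23 (95% interval -0.45 to 0.92).

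Single avp probes differed in how they read that pool. The ratio was above 0 for 11 of 12 probes, and 5 Gy replicate 2 was the highest pool for 9 of them. Probes numbered 177, 178, 179, 186 and 193, whose numbers nearly follow each other, had intensities of 7009 to 9596 in 5 Gy replicate 2. For probe 177 the other pools read 965, 1494 and 1544 in controls and 1358 and 2097 at 5 Gy. Probe 334 went the other way, with 87.0 in 5 Gy replicate 2 against 156 to 595 in controls and 646 and 904 in the other irradiated pools. Probe 58 alone had every irradiated pool above every control, at 573, 694 and 313 against 282, 202 and 241. When probes with numbers within 10 of the next were joined by their mean, leaving 8, the avp ratio was 0.67 (limma adjusted p = 0.912).

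The gene hcrt encodes hypocretin, also called orexin, which a small group of hypothalamic neurons uses to promote wakefulness and feeding. Its log2 values were 5.42, 5.57 and 7.01 in control replicates 1, 2 and 3, and 5.90, 7.70 and 7.06 in 5 Gy replicates 1, 2 and 3. Control replicate 3 lay above 5 Gy replicate 1, so the groups overlapped. The means were 6.0 ± 0.879 and 6.89 ± 0.912 (SD, n = 3), and the log2 ratio was 0.89 (standard error 0.568, 95% interval -0.42 to 2.19, limma adjusted p = 0.905, exact permutation p = 0.2, two-sided). Within pairs the difference was 0.48, 2.13 and 0.05. The ratio passed the thresholds without control replicate 3 (1.39), without 5 Gy replicate 1 (1.38) and with array weights (1.33), with limma adjusted p between 0.0534 and 0.776, whereas without 5 Gy replicate 2 it was 0.48. With the signal slope of each array as a covariate it was 0.14. The fits that hcrt passed differed in how many targets they called. Of 37157 they called 7126 without control replicate 3 and 10913 with array weights. Without 5 Gy replicate 1 the count was 1671, near the 1500 called with all 6 pools.

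Of the 12 hcrt probes, 11 had a ratio above 0, and the 4 with the highest numbers, 303, 316, 326 and 383, had ratios of 2.24, 1.63, 1.43 and 1.33. Probe 303 read 42.1, 244 and 393 in control replicates 1, 2 and 3, and 359, 2142 and 554 in 5 Gy replicates 1, 2 and 3. Control replicate 1 was the lowest pool on that probe and on probes 316 and 326. The lowest-numbered probe, 4, had a ratio of -0.96, with 30.6 in 5 Gy replicate 2 against 174, 97.5 and 330 in controls. On 7 of the 12 probes the mean log2 intensity was under 6.72, the limit of the dimmest 25% of probes on the array. Whether such probes read above background cannot be said from these values, which leaves the size of the hcrt ratio unsettled.

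The gene trh encodes the precursor of thyrotropin-releasing hormone, a short peptide that drives pituitary thyrotropin in mammals and also acts as a transmitter in the brain. Its log2 values were 8.46, 8.18 and 9.02 in control replicates 1, 2 and 3, and 9.46, 8.69 and 8.78 in 5 Gy replicates 1, 2 and 3. Here 5 Gy replicate 1 was the highest pool and control replicate 3 the next, so the groups overlapped. The means were 8.55 ± 0.426 and 8.98 ± 0.422 (SD, n = 3), with a log2 ratio of 0.42 (standard error 0.347, 95% interval -0.37 to 1.22, limma adjusted p = 0.905, exact permutation p = 0.4, two-sided). Within pairs the difference was 1.00, 0.51 and -0.24. In contrast to avp, lhb and smtla, the trh ratio was larger without 5 Gy replicate 2, at 0.57 (95% interval -0.33 to 1.47).

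The trh value of 5 Gy replicate 2 summarised probes that pointed in opposite directions. That pool was the highest of the 6 on 4 trh probes and the lowest on 4 others, against 20% and 24.7% of all probes. Probe 582 read 2660 there and 184 to 433 in controls, and probe 215 read 2090 there and 204 to 448 in controls. Probe 1316 read 45.1 there against 520 to 593 in controls, and probe 915 read 49.4 against 296 to 697. In the other 5 pools probe 1316 stayed between 318 and 703. Without 5 Gy replicate 2, 11 of the 12 trh probes had a ratio above 0, with a median of 0.59, while 8 did with all pools.

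**Figure D2:**
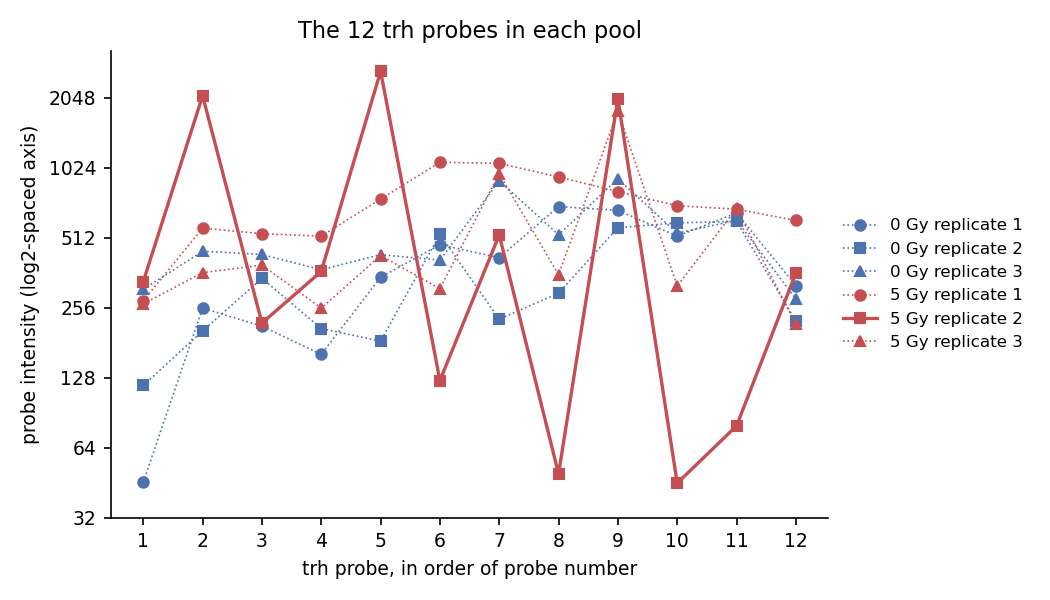
Intensity of the 12 trh probes (y axis, log2-spaced) in order of probe number (x axis), 1 line for each pool. The solid line of 5 Gy replicate 2 swings between 2660 and 45.1, while the other lines stay between 161 and 1796 from the second probe on.

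The gene lhb encodes the beta subunit of luteinizing hormone, the pituitary gonadotropin that triggers ovulation and steroid synthesis in mature gonads. Its log2 values were 7.51, 8.0 and 8.04 in control replicates 1, 2 and 3, and 8.0, 9.64 and 7.64 in 5 Gy replicates 1, 2 and 3. Apart from 5 Gy replicate 2, the irradiated pools lay within the range of the controls. The means were 7.85 ± 0.297 and 8.43 ± 1.07 (SD, n = 3), and the log2 ratio was 0.580 (standard error 0.512, 95% interval -0.59 to 1.76, limma adjusted p = 0.905, exact permutation p = 0.5, two-sided). Within pairs the difference was 0.50, 1.65 and -0.40. Without 5 Gy replicate 2 the ratio was -0.028 (95% interval -0.78 to 0.72).

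The lhb probes fell into a bright and a dim set. The 4 with the highest numbers, 895 to 1182, read 25.6 to 61.6 in controls and 27.7 to 120 at 5 Gy, near the array's lowest value of 16.38, and their ratios lay between -0.28 and 0.50. Probes 470, 476, 482 and 488 read 1142, 1708, 1266 and 2187 in 5 Gy replicate 2, against 116 to 334 in controls, and their numbers too are close together. Probe 1 read 1108 in that pool and 28.9 to 205 in controls. When probes with numbers within 10 of the next were joined, which left 7, the lhb ratio was 0.30.

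The genes smtla and smtlb encode somatolactin alpha and somatolactin beta, fish pituitary hormones of the family of growth hormone and prolactin, of which the alpha form controls pigment cells in medaka. The smtla log2 values were 5.79, 6.42 and 6.84 in control replicates 1, 2 and 3, and 5.95, 7.97 and 6.95 in 5 Gy replicates 1, 2 and 3. The groups overlapped, and replicate 1 was the lowest pool in each. The means were 6.35 ± 0.528 and 6.95 ± 1.01 (SD, n = 3), with a log2 ratio of 0.60 (standard error 0.523, 95% interval -0.60 to 1.80, limma adjusted p = 0.905, exact permutation p = 0.4, two-sided). Within pairs the difference was 0.15, 1.55 and 0.10. The ratio was 0.09 without 5 Gy replicate 2 and 0.14 with the signal slope as a covariate.

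Among the smtla probes, 5 Gy replicate 2 was the highest pool on 9 of 12. Probe 118 read 1179 there, 74.7 and 71.7 in 5 Gy replicates 1 and 3, and 28.4 to 40.5 in controls, and it was the smtla probe on which every irradiated pool lay above every control. Probe 321 read 4868 in 5 Gy replicate 2 and 247 to 567 in the other 5 pools. On 6 of the 12 probes the mean lay in the dimmest 25% of the array, and whether these read above background cannot be said from these values.

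The brightest smtla probe and the brightest avp probe behaved alike. smtla probe 4 read 2718, 9055 and 1683 in control replicates 1, 2 and 3, and 4295, 25818 and 3163 in 5 Gy replicates 1, 2 and 3. avp probe 28 read 2425, 7515 and 1790 in the controls and 3074, 24410 and 3941 at 5 Gy, in the same order of replicates. The root mean square difference between them was 0.27 on the log2 scale over the 6 pools. Of the 384999 other probes on the array, smtla probe 4 was the 1 that lay this close to avp probe 28, and 2 probes, avp probe 28 among them, lay this close to smtla probe 4. Each is the lowest-numbered probe of its target. Both probes were chosen once their values had been looked at, and no probe sequences were used here, so whether the pair reads the same RNA was not tested.

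The smtlb values showed no such high pool. They were 5.62, 5.86 and 6.07 in control replicates 1, 2 and 3, and 5.72, 6.02 and 5.66 in 5 Gy replicates 1, 2 and 3. The groups overlapped, and all 6 pools lay closer together than the 3 irradiated pools did for smtla. The means were 5.85 ± 0.224 and 5.80 ± 0.194 (SD, n = 3), and the log2 ratio was -0.047, or 0.00029 with arrays centred on their medians and 0.12 with the mean of probes (for -0.047, standard error 0.276, 95% interval -0.68 to 0.59, limma adjusted p = 0.984, exact permutation p = 0.9, two-sided). Of its 12 probes 9 were in the dimmest 25% of the array, and ratios ran from -1.35 to 1.72. Probes 409 and 435 had every irradiated pool below every control, with 31.9 to 45.1 against 45.3 to 81.7 for probe 409 and 45.2 to 63.2 against 88.7 to 204 for probe 435. Probe 64 read 3326 in 5 Gy replicate 2, 455 and 151 in the other irradiated pools, and 65.0, 572 and 172 in controls.

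Over the 71 probes of the 6 genes, 56 had a ratio above 0 and 15 below (47.8% of all probes were above 0). Of the 71, 41 were highest in 5 Gy replicate 2, against 20% of all probes. Without that pool 52 of 71 had a ratio above 0, a count for which no share over all probes was computed. 2 probes had all irradiated pools above all controls and 2 had them all below, against 3.04% and 4.23% of all probes on the array. Probes of one target share its RNA, so no test was attached to these counts. The plot of probe ratios shows how far single probes moved when 5 Gy replicate 2 was left out.

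**Figure D3:**
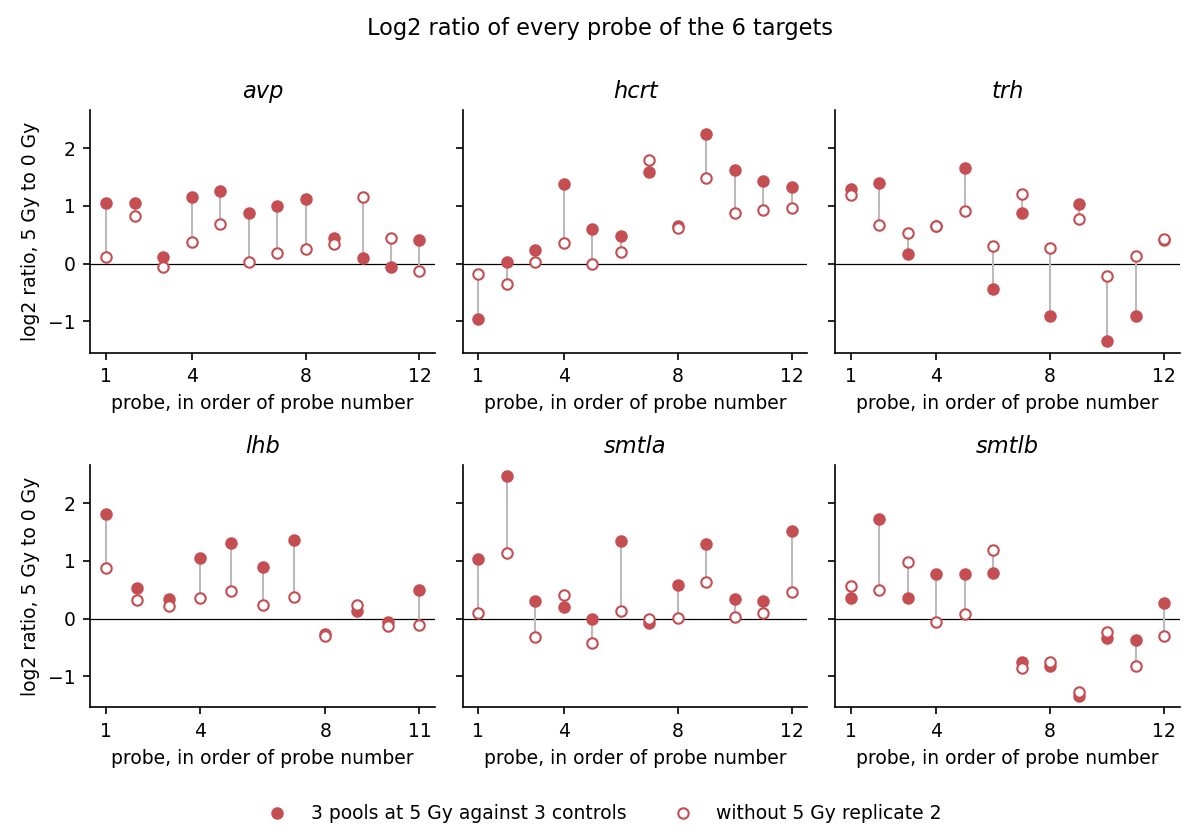
Log2 ratio of 5 Gy to control (y axis) of every probe of the 6 targets, in order of probe number (x axis). Filled points use 3 pools at 5 Gy, open points leave out 5 Gy replicate 2, and grey lines join the values of a probe. Of 71 filled points 56 lie above 0, and the 4 trh probes below 0 move up when that pool is left out.

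Pools of the same number were also set side by side. In the pair of pools numbered 1 all 6 differences were above 0, from 0.10 for smtlb to 1.00 for trh. In pair 2 all 6 were above 0 as well, from 0.16 for smtlb to 2.13 for hcrt. In pair 3, 3 were above 0, and the values ran from -0.40 for lhb and smtlb to 0.22 for avp. No share over all targets was computed for these counts, so whether they set the hormone genes apart cannot be said. A pairing by number is also not shown for the pools numbered 1 and 2. Blocking on the replicate number, limma gave unadjusted p = 0.0583 for avp and 0.0623 for hcrt, and none of the 6 passed. The number of altered targets over the whole array was 3272 with the block and 1500 without it.

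**Figure D4:**
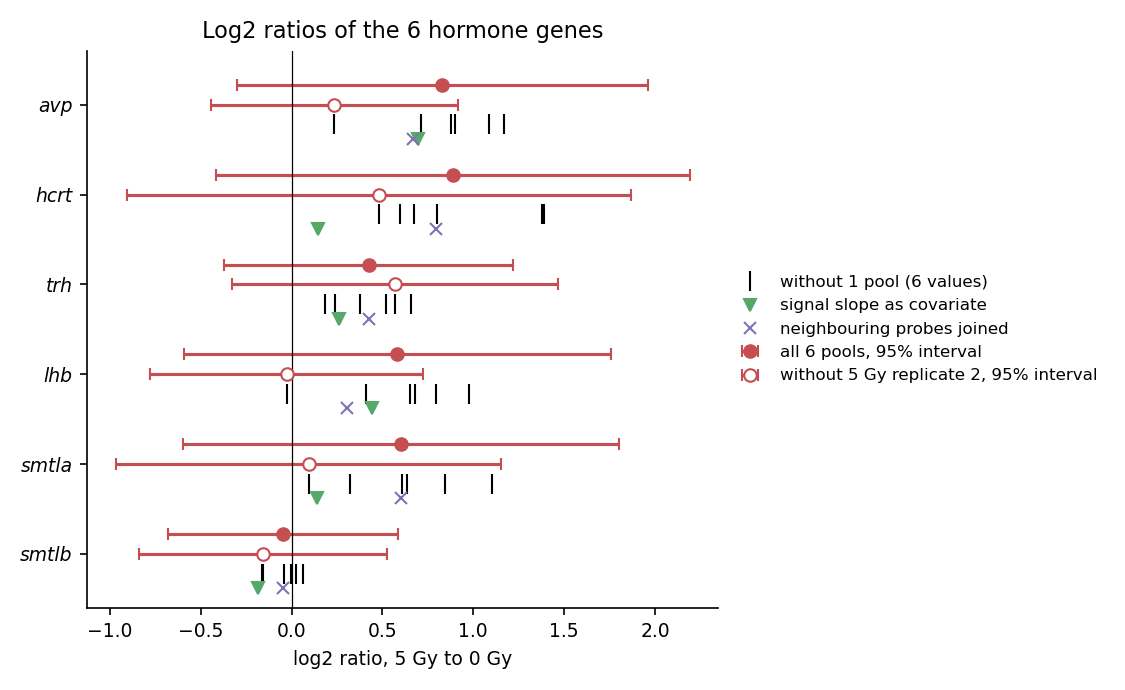
Log2 ratio of 5 Gy to control (x axis) of the 6 hormone genes. Filled and open points give all 6 pools and all but 5 Gy replicate 2, with 95% intervals from limma, black ticks leave out 1 pool each, and green and purple marks use the signal slope as a covariate or join neighbouring probes. Every interval crosses 0, and leaving out 5 Gy replicate 2 moves lhb from 0.580 to -0.028.

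Few other genes of these hormone systems had a target that carried a RefSeq mRNA identifier and a zebrafish symbol. Genes of the lists were sought among those targets alone. The counts here leave out any gene that the array holds under another kind of identifier, and they do not describe a whole list. Under such identifiers the study reported some list genes, by their human names, as altered in a test without adjustment. GPR24, a receptor for melanin-concentrating hormone, and TSHR were raised, and RLN3, PAM and SYT7 were lowered. Of 64 listed hypothalamic peptide genes 6 were found, and the 3 besides avp, hcrt and trh had ratios below 0 and did not pass the test. These were ghrh, the releasing hormone of growth hormone, at -0.16 (standard error 0.277), adcyap1a, a precursor of the peptide PACAP, at -0.21 (standard error 0.382), and pdyn, the precursor of dynorphin opioid peptides, at -0.10 (standard error 0.305). The adcyap1a ratio was -0.71 and past the thresholds with array weights (limma unadjusted p = 0.0395), a fit that called 10913 targets. It was above 0 with the signal slope as a covariate (0.21) and without control replicate 2 (0.046). 5 Gy replicate 2 was not the highest pool for any of the 3. Of 12 listed pituitary hormone genes the 3 described above were the ones found.

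Of 65 listed receptors for these hormones 3 were found among the named targets, all in the dimmest 25% of targets by mean log2 value, and none of these 3 passed the test. hcrtr2, the hypocretin receptor, had log2 values of 6.82, 6.96 and 6.61 in control replicates 1, 2 and 3, and 6.20, 7.12 and 6.80 in 5 Gy replicates 1, 2 and 3 (ratio -0.086, 95% interval -0.82 to 0.65). lhcgr, the receptor for luteinizing hormone, had a ratio of -0.12 (standard error 0.311), and npy7r, a receptor for neuropeptide Y, one of -0.26 (standard error 0.441).

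Of 32 listed genes of peptide processing and secretory granules 2 were found among the named targets, and neither of them passed the test. scg2b encodes a secretogranin, a protein of the granules in which peptide hormones are stored. Its log2 values were 13.25, 13.23 and 13.08 in control replicates 1, 2 and 3, and 12.89, 11.17 and 12.96 in 5 Gy replicates 1, 2 and 3. Every irradiated pool lay below every control, as for 4.7% of all targets, and 5 Gy replicate 2, the highest pool for avp, hcrt, lhb and smtla, was the lowest for scg2b. The ratio was -0.85 (standard error 0.480, limma unadjusted p = 0.114), and -0.26 without 5 Gy replicate 2 (limma unadjusted p = 0.359). pcsk5b, a protease that cuts precursor proteins, had a ratio of -0.37 (standard error 0.284).

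Of 55 listed transcription factors of hypothalamus and pituitary 4 were found among the named targets, and 1 rose. fezf2, which directs the formation of hypothalamic neurons in the zebrafish embryo, rose by 1.16 (standard error 0.427, limma unadjusted p = 0.0256, adjusted p = 0.905). Its log2 values were 7.36, 7.54 and 8.68 in control replicates 1, 2 and 3, and 8.50, 9.14 and 9.43 in 5 Gy replicates 1, 2 and 3. Control replicate 3 lay above 5 Gy replicate 1, so the groups overlapped, though each irradiated pool exceeded the control of its number. The call was lost without 5 Gy replicate 2 (1.11), 5 Gy replicate 3 (0.96) or control replicate 1 or 2 (0.91 and 1.00), in the methods' t-test without pairing, and with the signal slope as a covariate (0.57). vax1, a factor of the optic stalk and ventral forebrain, had a ratio of 0.73 and did not pass. It was past the thresholds at 1.24 without control replicate 3 and at 1.33 with array weights (limma adjusted p = 0.0439). With the signal slope as a covariate it was 0.082. The fits that vax1 passed called 7126 targets without control replicate 3 and 10913 with array weights, of 37157. Neither pitx1, a factor of the pituitary placode (0.18), nor nr4a2b, a factor of dopamine neurons (-0.17), passed. Of 59 genes of the thyroid, interrenal and growth axes 2 were found there, and neither igfbp5a, an IGF binding protein (-0.45, standard error 0.366, but -0.79 and past the thresholds without control replicate 3), nor the clock gene per1b (-0.14, standard error 0.453) passed the test.

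**Figure D5:**
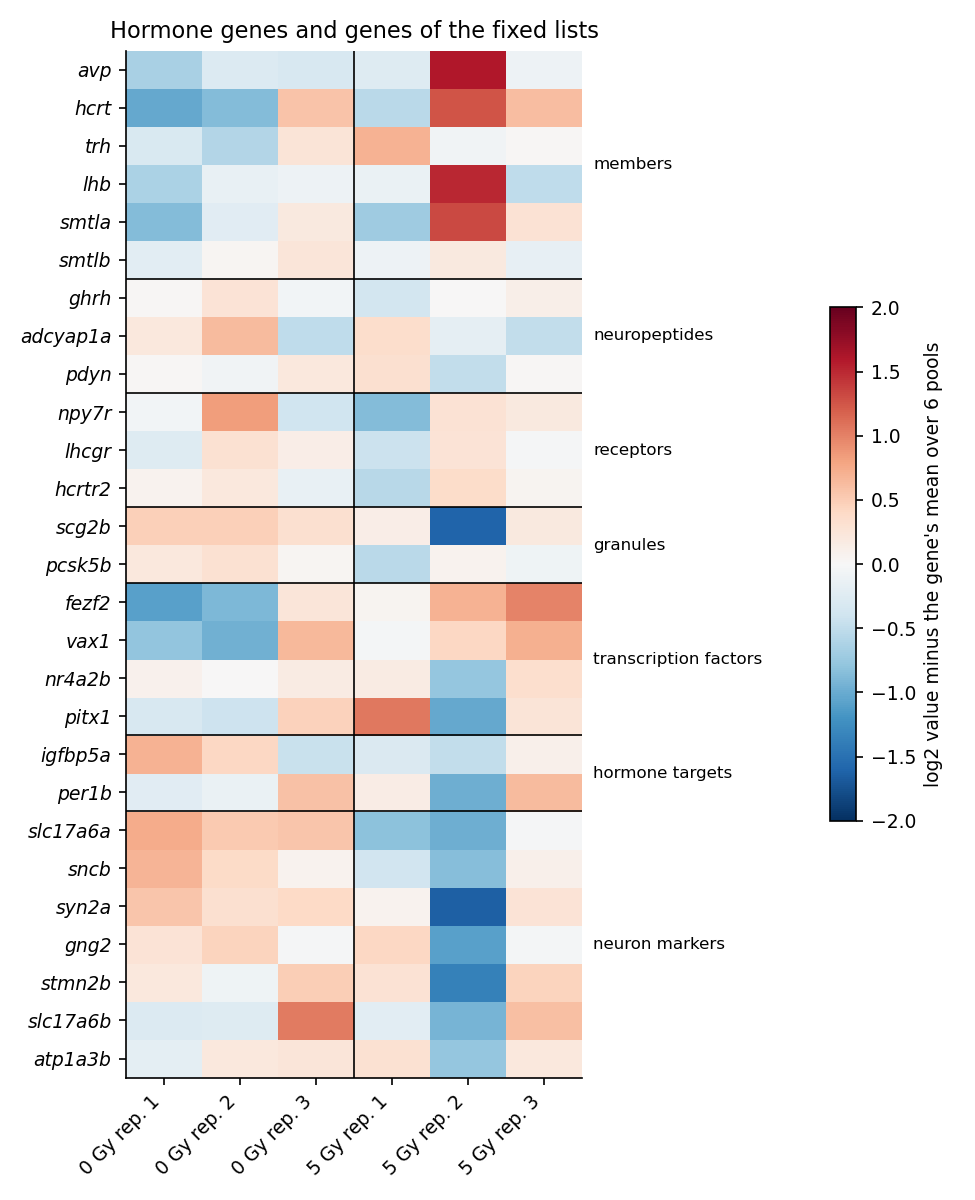
Log2 value of each gene minus its own mean over the 6 pools (colour), in the 6 pools (columns). Rows are the 6 hormone genes and the genes of the fixed lists found among the named targets, without the glia and skeletal muscle markers. In the column of 5 Gy replicate 2, avp, hcrt, lhb and smtla are high, at 11.80, 7.70, 9.64 and 7.97 on the log2 scale, while scg2b (11.17) and all 7 neuron markers are low.

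Targets for markers of neurons, glia and muscle were found, and no background was measured here to say which of them read above it. Of the 7 neuron markers 1 fell, slc17a6a, a vesicular glutamate transporter (-1.21, standard error 0.325), which did not pass the methods' t-test when pools were paired. The next by p, sncb and syn2a, at -0.76 and -0.85, did not pass, though sncb did with a trend in eBayes (limma unadjusted p = 0.0173), without control replicate 3 (-0.91) and without 5 Gy replicate 3 (-0.996), and syn2a was -0.25 without 5 Gy replicate 2. The median over the 7 was -0.47, or -0.041 without 5 Gy replicate 2. With so few of the listed genes found among the named targets, 7 of 65 for neurons, 3 of 23 for glia and 8 of 42 for skeletal muscle, these checks are partial. None of the 3 glia markers of the list, fabp7a, olig1 and csf1ra, passed (0.11, 0.027 and -0.010), with a median of 0.027. Whether these 3, csf1ra among them, are read from glia alone in a whole larva was not tested. Their summed intensity was 3471 to 4996 in controls and 2838 to 6854 at 5 Gy, and fabp7a, a target of 3 probes, weighs most in it. Under other identifiers the study reported GFAP and AQP4, both glia markers of the list, as raised on these arrays. It likewise reported GAD2, ELAVL4 and SV2C, human names of genes in the neuron list, as lowered. For the muscle list, also by human names, it reported MYBPC1, PFKM and DES as raised and TTN as lowered. The named mybpc1 target had a ratio of 0.086 here, without passing, against the raised MYBPC1 among those calls. Those calls came from a test without adjustment. Of 8 skeletal muscle markers 2 rose, pygma and smyd1b (0.67 and 0.77), but neither passed with the replicate number as a block (limma unadjusted p = 0.0565 and 0.0521) or without 5 Gy replicate 2 (0.70 and 0.62). With 1 pool left out, pygma passed without control replicate 3 alone, and smyd1b passed without control replicate 3 and without 5 Gy replicate 3. casq1b had a ratio of 0.50 and did not pass, and the summed intensity was 99801 to 106735 in controls and 112951 to 117844 at 5 Gy. The part of tissue content in the values of the hormone genes was not tested.

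The targets whose 6 values were most like those of each hormone gene were found among 2657 other targets with a zebrafish symbol. Likeness was the root mean square difference between log2 values, each centred on its mean over the 6 pools. For avp these were trim35-36 (0.17) and il22ra2 (0.23), against a median of 0.87 over all such targets, and trim35-36 was also among the nearest to lhb (0.24), beside mgp (0.24). For hcrt they were drp2 (0.17) and rargb (0.18), and for smtla zgc:152938 (0.16) and tuba4l (0.19). The target trim35-36 had a log2 value of 9.36 in 5 Gy replicate 2 and 6.71 to 7.12 in the other 5 pools. For trh the nearest were tmem11 (0.053) and fktn (0.078), which like trh were highest in 5 Gy replicate 1. For smtlb they were rbfox1l (0.089) and ube2r2 (0.10). Among the hormone genes themselves avp and lhb were the most alike pair (0.21), and trh was farther from avp, hcrt, lhb and smtla (0.81 to 0.86) than from smtlb (0.44). The median over the other named targets was 0.51 for trh and 0.44 for smtlb, so the 0.44 between them was an ordinary distance for smtlb. That median was 0.84 to 0.95 for avp, hcrt, lhb and smtla.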

How the data were processed

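The values deposited by the authors were intensities on a linear scale for 385000 probes of 6 one-colour NimbleGen arrays, taken from the scans with NimbleScan and quantile normalized. RMA is named without a version in the submitters' processing notes, yet probes are not combined in the deposited values, whose median lay between 355 and 357 on each array. All 6 columns were used and 0 were left out. Background subtraction and genome build are not given in the sources used here, so no coordinates were used. Log2 probe intensities were combined per target by median polish (tolerance 0.01, at most 10 iterations). A zebrafish symbol was found for 2663 of 3055 targets named by a RefSeq mRNA. limma 3.58.1 (lmFit, eBayes; R 4.3.3) compared the groups without covariates, and p-values were adjusted by Benjamini-Hochberg across all 37157 targets. A target "rose" or "fell" where p was under 0.05 before adjustment and the change was 1.5-fold or more. A single value was also given an exact permutation test over pools. Precision is limited by having 3 arrays a group, and p-values measure the spread between pools.

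The members, the lists and the rules were chosen with earlier results of these data known. Named were every member, from each list the targets past the thresholds or else up to 3 with the smallest p, and per member the 2 targets most alike; ghrh, adcyap1a, pdyn, pitx1 and single probes were added after their values were seen. After group means were removed, same-numbered pools correlated at 0.150, 0.239 and 0.497, and pools of different numbers were not compared in that way. Before that removal, 5 Gy replicates 1 and 2 were both closer to control replicate 3 (r = 0.957 and 0.915) than to the control of their number. A pairing by number is thus not shown for these, and fits with the replicate number as a block are given as an alternative. Other alternatives were median centring, a repeated quantile normalization, averaging probes by mean or by median, dropping the dimmest 25% of targets, array weights, a trend in eBayes, the methods' t-test (unpaired and paired), the signal slope as a covariate and leaving out each pool, for which target values were kept. Joining neighbouring probes was added after seeing the data. limma, with and without the block, and both t-tests were checked on simulated data. The simulated pools had independent noise, without the likeness between arrays seen here. The permutation test and the other settings were not checked in this way.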

Additional observations from a re-analysis of the deposited data

How the results depend on the processing

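Over 18 other settings the 6 hormone genes gave 105 values, of which 97 kept their direction and stayed short of the thresholds, 3 passed them and 5 changed sign. The filter on dim targets left out hcrt, smtla and smtlb and so gave them no value. All 3 passes were of hcrt: 1.33 with array weights (1 member altered), and 1.38 and 1.39 without 5 Gy replicate 1 and without control replicate 3, and the range without 1 pool was 0.48 to 1.39, with 0 to 1 members altered. The sign changed for lhb without 5 Gy replicate 2 (-0.028, in a range of -0.028 to 0.98 without 1 pool) and for smtlb with median centring (0.00029), the mean of probes (0.12) and without control replicate 3 or 5 Gy replicate 3 (0.061 and 0.022). Without 1 pool the ranges were 0.23 to 1.17 for avp, 0.18 to 0.66 for trh, 0.09 to 1.11 for smtla and -0.16 to 0.061 for smtlb. The count of altered targets on the array was 1500, or 3272 under a replicate block, which changed no call of a hormone gene. It was 569 with the methods' t-test, 341 in its paired form, 10913 with array weights, 547 with the signal slope as a covariate, and 308 to 7126 without 1 pool (308 and 310 without control replicate 1 or 2, 7126 without control replicate 3 and 895 without 5 Gy replicate 2). The cause was not tested. The mean log2 values of hcrt, smtla and smtlb lay in the dimmest 25% of targets. No background was measured here, so whether these targets read above it cannot be said.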
